A study of Mus musculus with 59 samples.

Results

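The 10 genes described here encode building blocks and regulators of the neuronal microtubule and 1 growth cone protein: the tubulins Tubb3, Tuba1a, Tubb2a, Tubb4a and Tubb5, the stathmins Stmn1, Stmn2, Stmn3 and Stmn4, and Gap43. They were chosen by symbol, and all 10 were found among the 20689 genes of the expression table. Of these, 6 are known for high expression in growing neurons and are called growth-related here (Tubb3, Tuba1a, Tubb5, Stmn1, Stmn2 and Gap43). The other 4 (Tubb2a, Tubb4a, Stmn3 and Stmn4) are known for expression that persists in the adult brain and are called mature genes. This division comes from textbook knowledge and is approximate, since Tubb3, Stmn2 and Gap43 also stay on in some adult neurons.

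RNA of 59 single mouse cells, labelled chemical-induced neurons, was sequenced in a study that used chemicals to convert astrocytes to neurons inside the brain. All cells carry an age label of 12 weeks and form 1 group. Strain, animal, sex and the compounds used are not named in the sources used here, and no untreated neurons or astrocytes were analysed here. Cell contents were aspirated through a patch electrode in vivo, so the electrode passed through tissue. The 59 cells were treated as 1 sample, without tests or p-values.

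Microtubules are hollow polymers of alpha- and beta-tubulin pairs that carry transport along axons and dendrites and give them shape. Neurons use several tubulin isotypes with near-identical cores and different tail ends, and Tubb3 is widely used as a neuronal marker while Tubb4a is also a main beta-tubulin of myelinating oligodendrocytes. Stathmins bind free tubulin pairs and hold them back from the polymer, and Gap43 sits under the membrane of growth cones and presynaptic endings, where it takes part in axon growth and sprouting.

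Beta-tubulin proteins differ chiefly in their tails, and the 3′ ends of the coding sequences that encode these tails are shown because the comparison of Tubb4a with its relatives rests on telling these transcripts apart. Each line gives the last 90 coding bases with the stop codon, from GENCODE M21 transcripts on GRCm38, 5′ to 3′. Capitals mark bases that differ from Tubb4a in a global alignment or have no counterpart in it.
Tubb4a: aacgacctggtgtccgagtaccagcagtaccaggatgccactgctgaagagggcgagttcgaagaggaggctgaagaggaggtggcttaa
Tubb3: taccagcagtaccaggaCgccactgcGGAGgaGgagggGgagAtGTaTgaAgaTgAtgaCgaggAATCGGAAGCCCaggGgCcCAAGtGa
Tubb2a: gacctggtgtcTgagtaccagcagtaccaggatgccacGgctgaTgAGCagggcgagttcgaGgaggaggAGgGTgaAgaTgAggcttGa
Tubb5: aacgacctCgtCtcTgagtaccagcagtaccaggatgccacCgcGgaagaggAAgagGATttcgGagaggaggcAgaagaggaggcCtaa
In these 90 bases, 34 of Tubb3 (37.8%) differed from Tubb4a or had no counterpart in it, against 15 of Tubb2a (16.7%) and 13 of Tubb5 (14.4%). The coding sequence of Tubb3 has 1353 bases and that of Tubb4a 1335, so part of the 34 is extra length. Substituted and extra bases were not counted apart. Over the coding bases before them the differences, counted in the same way, were 16.2% for Tubb3, 15.9% for Tubb2a and 16.0% for Tubb5. No 50-base stretch of a Tubb3, Stmn3, Stmn4 or Gap43 transcript was found in a transcript of another gene, and for Tubb4a 0.184% of such stretches were. Tubb2a shared 49.6% of them, mostly with Tubb2b, whose coding sequence is 96.5% identical. Tuba1a shared 72.9%, with Tuba1c and others, and its coding sequence is 98.3% identical to that of Tuba1b. How reads that match several genes were counted is not given in the sources used here, so the values of Tubb2a and Tuba1a can include or lack reads of these relatives.

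Most cells held both neuronal and glial transcripts. Of the 20 neuronal markers, each was found in some cells, led by Snap25 (a synaptic vesicle fusion protein) in 54. A list counted as reached in a cell that held 50% or more of its genes, which for neuronal markers was so in 46 of the 59 cells. The 10 oligodendrocyte markers were reached in 46 cells, the 18 astrocyte markers in 32 and the 13 microglia markers in 28. Most cells thus held markers of their label beside those of other cell types. Lists of endothelial, cell cycle and off-tissue genes each had a median of 3.39% of cells per gene. The mean log2(FPKM + 1) of the oligodendrocyte list ran from 0.71 to 10.70 over the cells with a median of 6.49, and that of the neuronal list from 0 to 6.61 with a median of 4.05. The 2 list means had a Spearman correlation (rho) of -0.311 over the 59 cells. Depth, as estimated from the values, was 912822 fragments in the median cell (29013 to 2950402), with 3984 genes detected (475 to 10310).

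All 10 genes were common in these cells. A gene counted as detected at an FPKM (fragment count divided by exon length and library size) of 1 or more, and intervals are exact Clopper-Pearson 95% intervals that cover counting error over cells only. Each of the 10 genes was detected in at least 50% of cells, a mark that 11.7% of all genes in the table reached. In 25 cells all 10 were found, and these cells had a median of 5921 genes detected, against 2725 in the 34 cells with fewer. Cell 53, with 519 genes detected, held the fewest members, Tubb4a and Stmn4. Asking for 10 recovered fragments in place of an FPKM of 1 left Tubb4a in 53 cells and Stmn1 in 52, and Tubb2a, the lowest by this measure, in 34.

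Tubb4a, a beta-tubulin of axons and of myelinating glia, had the highest median level of the 10. It was detected in 55 of the 59 cells (93.2%, 83.5 to 98.1%), with a lowest value of 0, a median of 486 FPKM and a highest value of 7973 FPKM in cell 60. Its quartiles were 177 and 1217 FPKM, so most cells held it at high level, and 3 cells were at exactly 0.

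The other beta-tubulins were lower. Tubb3, the isotype used to mark neurons, was detected in 47 cells (79.7%, 67.2 to 89.0%), with a lowest value of 0, a median of 63.4 FPKM and a highest value of 830 FPKM in cell 19. Tubb5, which is abundant in dividing and developing cells, was detected in 49 cells (83.1%), with 0, 40.1 and 306 FPKM as lowest, median and highest value. Tubb2a, a major beta-tubulin of adult brain, was detected in 42 cells (71.2%), with 0, 30.6 and 807 FPKM. These 3 genes were thus at or near 0 in some cells and high in others. Tuba1a, the main neuronal alpha-tubulin, was detected in 55 cells (93.2%) with 0, 351 and 3843 FPKM, the highest again in cell 60.

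Among the stathmins, Stmn1, the widely expressed founding member, was detected in 53 cells (89.8%, 79.2 to 96.2%), with a lowest value of 0, a median of 190 FPKM and a highest value of 1343 FPKM in cell 41. Stmn3, a neuronal stathmin anchored to membranes, was detected in 49 cells (83.1%), with 0, 172 and 2787 FPKM. Stmn4, another brain stathmin, was detected in 48 cells (81.4%), with 0, 53.9 and 775 FPKM. Stmn2, a stathmin of growing and regenerating axons also called SCG10, was the least abundant of the 10, in 41 cells (69.5%, 56.1 to 80.8%) with 0, 9.37 and 110 FPKM. Gap43 was detected in 46 cells (78.0%, 65.3 to 87.7%), with 0, 77.4 and 1209 FPKM, and 10 cells were at exactly 0.

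In GENCODE M21 on GRCm38, the tubulin genes lie at chr17:57080066-57087782 (Tubb4a, minus strand), chr8:123411424-123422015 (Tubb3, plus), chr17:35833921-35838306 (Tubb5, minus), chr13:34074274-34078007 (Tubb2a, minus) and chr15:98949837-98953703 (Tuba1a, minus). The stathmin genes lie at chr4:134468320-134473843 (Stmn1, plus), chr3:8509360-8561606 (Stmn2, plus), chr2:181306459-181314500 (Stmn3, minus) and chr14:66344296-66361680 (Stmn4, plus), and Gap43 at chr16:42248442-42340651 (minus). The 10 genes are thus spread over 9 chromosomes.

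Levels of different genes can be set side by side because FPKM is per length, but the length itself was uncertain for some. The union of all annotated Stmn2 exons spans 5602 bases, against 2073 for its longest protein-coding transcript, and with the shorter length its median would be 25.3 FPKM. For Stmn1 the same change would give 345 FPKM. How reads that match several genes were counted is not known either, which bears on the places of Tubb2a and Tuba1a. By median the order was Tubb4a, Tuba1a, Stmn1, Stmn3, Gap43, Tubb3, Stmn4, Tubb5, Tubb2a and Stmn2. No step in this order exceeded the spread over cells: Tubb4a was higher than Tuba1a in 36 cells and lower in 23, Tuba1a was higher than Stmn1 in 45 and lower in 13, and Tubb2a was higher than Stmn2 in 39 and lower in 13. The median within-cell difference between neighbours was at most 1.39 on the log2(FPKM + 1) scale, and the SD of these differences ran from 2.21 to 4.32.

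**Figure D1:**
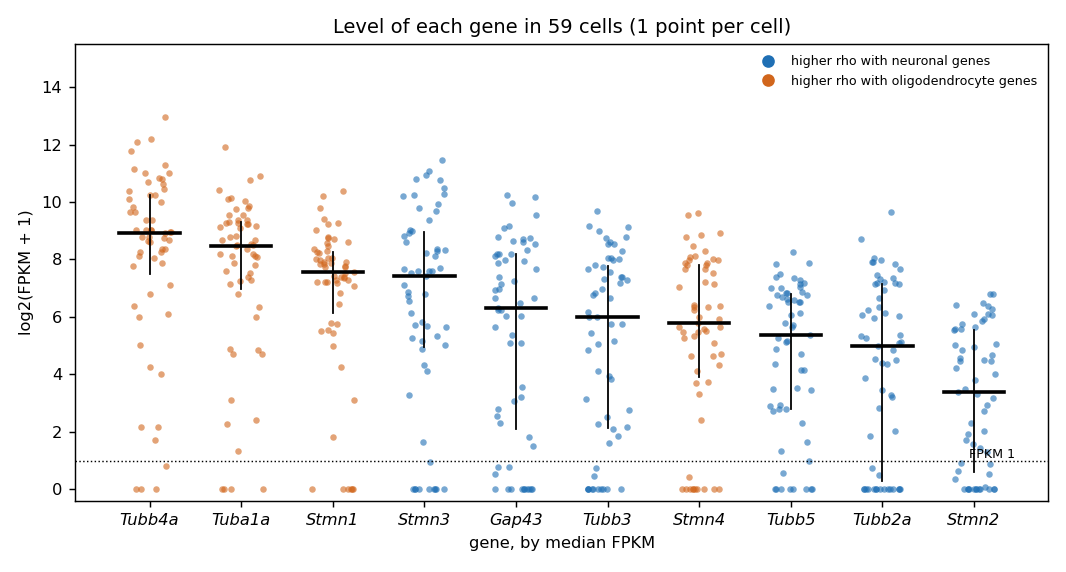
Level of each of the 10 genes in 59 cells, as log2(FPKM + 1), with 1 point per cell, a thick line at the median and a thin line over the quartiles; genes are ordered by median. Each gene spreads from 0 to well above its median, and Tubb4a, at a median of 486 FPKM, and Stmn2, at 9.37 FPKM, stand at the ends of the order.

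In the plot of levels, colour shows which marker list a gene tracked more closely over the cells. Tubb4a, Stmn4, Tuba1a and Stmn1 tracked the oligodendrocyte list more closely, and the 6 others the neuronal list. Each set held growth-related and mature genes.

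Stmn2 and Tubb2a had the strongest relation with the neuronal list. Over the 59 cells, rho with the mean of the 20 neuronal markers was 0.761 for Stmn2, 0.714 for Tubb2a, 0.655 for Tubb5, 0.650 for Gap43 and 0.622 for Stmn3. Their rho with the oligodendrocyte list was -0.325 for Stmn2, -0.230 for Tubb2a, 0.0083 for Tubb5, -0.154 for Gap43 and -0.190 for Stmn3. Tubb3 was weaker than these 5, with a rho of 0.403 against neuronal markers and -0.0095 against oligodendrocyte markers. The widely used neuronal marker thus tracked the neuronal list less closely in these cells than Stmn2 or Tubb2a did, as a description without a test.

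Tubb4a and Stmn4 showed the opposite pattern. The correlation with the oligodendrocyte list was 0.738 for Tubb4a and 0.696 for Stmn4, and with the neuronal list it was -0.214 for Tubb4a and -0.182 for Stmn4. Tuba1a (0.550) and Stmn1 (0.487) followed with the oligodendrocyte list, and both were near 0 with the neuronal list, at 0.0855 for Tuba1a and 0.0177 for Stmn1. These are correlations over cells of 1 sample that share depth and scaling, and are given as descriptions. The part of RNA from neighbouring cells in them was not tested.

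A rho of 0.5 or more with the neuronal list was reached by 5 of the 10 genes, and with the oligodendrocyte list by 3 of the 10. Among the 8042 genes found in at least 12 cells, 13.2% reached this mark with neuronal and 3.64% with oligodendrocyte markers. The shares were higher among widely detected genes: of the 936 genes found in at least 41 cells, the number of the least detected of the 10, 24.4% did so with neuronal and 8.01% with oligodendrocyte markers. The median rho with the neuronal list was 0.512 for the 10 genes and 0.324 for those 936.

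**Figure D2:**
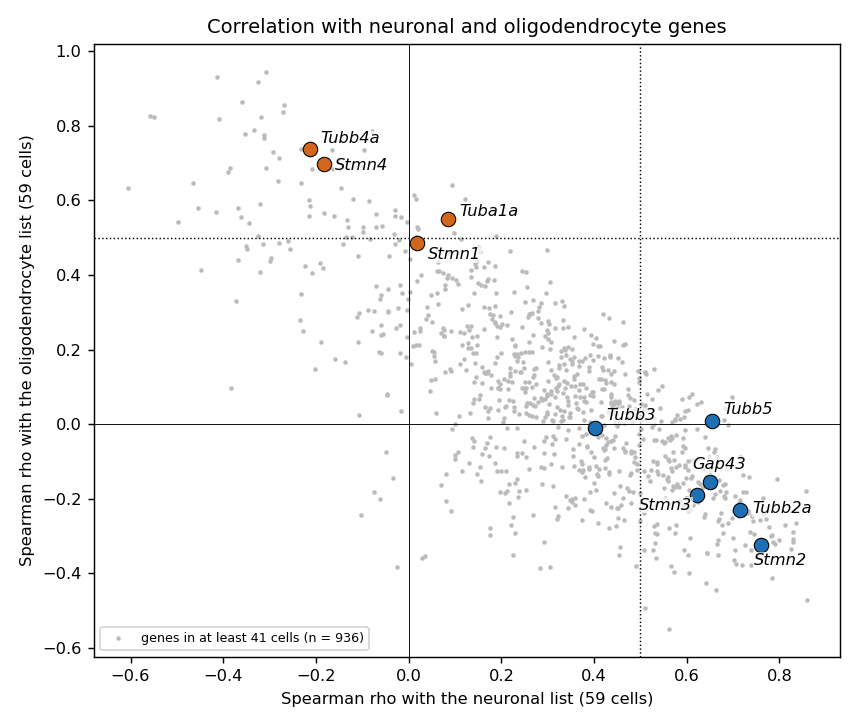
Spearman rho of each gene with the neuronal list (x axis) and the oligodendrocyte list (y axis) over 59 cells; coloured points are the 10 genes (orange where rho is higher with the oligodendrocyte list, blue with the neuronal list), grey points the 936 genes detected in at least 41 cells, and dotted lines mark 0.5. Tubb4a (-0.214, 0.738) and Stmn4 lie at the upper left, and Stmn2 (0.761, -0.325) and Tubb2a at the lower right.

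As the plot of both correlations shows, the grey points run along a diagonal from upper left to lower right, and the 10 genes are spread along it rather than gathered at one end. Tubb3 sits near its middle.

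Several of these genes also tracked the number of genes detected per cell, which was taken into account by a partial rank correlation. The correlation with the number of genes detected was 0.627 for Tubb5, 0.550 for Tubb2a, 0.420 for Tuba1a and 0.419 for Tubb3, against 0.0922 for Tubb4a and 0.112 for Stmn4. Given the number of genes, the neuronal correlation was 0.700 for Stmn2, 0.599 for Tubb2a, 0.589 for Gap43, 0.546 for Stmn3, 0.494 for Tubb5 and 0.238 for Tubb3. The oligodendrocyte correlation was 0.740 for Tubb4a, 0.693 for Stmn4, 0.512 for Tuba1a and 0.465 for Stmn1. Which of the 2 lists each gene tracked more closely was the same for all 10 genes here as without the adjustment.

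Tubb5 and Gap43 had the highest rho of the 10 genes with the astrocyte list, on either side of 0.5 depending on the setting. With the 18 astrocyte markers, rho was 0.486 for Tubb5, 0.465 for Gap43 and 0.417 for Stmn2, and given the number of genes detected it was 0.239 for Tubb5, 0.358 for Gap43 and 0.257 for Stmn2. Tubb5 reached 0.523 with the list median, 0.511 with a pseudocount of 0.1 and 0.538 after rescaling each cell without mitochondrial genes and Rn18s-rs5, and Gap43 reached 0.506 after that rescaling. With a restricted list of 11 of these markers, rho was 0.402 for Tubb5, 0.401 for Gap43 and 0.329 for Stmn2. In cells with at least 2000 genes it was 0.260 for Tubb5, 0.333 for Gap43 and 0.262 for Stmn2. Tubb5 and Gap43 were also below 0.5 with a pseudocount of 10 and in cells with at least 500000 fragments. With the 13 microglia markers the highest rho was 0.367 for Tubb5, and 0.0944 given the number of genes. The astrocyte list itself had a rho of 0.393 with the neuronal list.

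The 13 cells in which less than 50% of the neuronal list was detected show which of the 10 genes were found without most neuronal markers. In these cells Stmn2 was detected in 2, Gap43 in 4, Tubb2a in 4 and Stmn3 in 6. Tubb5 was detected in 7 and Tubb3 in 8 of them. Tuba1a, Stmn1 and Stmn4 were each detected in 10 and Tubb4a in 12. Tubb4a had a median of 433 FPKM in the 46 cells that reached the list and 1386 FPKM in the 13 that did not, while Stmn2 had 21.3 FPKM in those that reached it and 0 in those that did not. Gap43 had 134 FPKM, Tubb2a 39.8 FPKM and Stmn3 198 FPKM in cells that reached the list, and all 3 were at a median of 0 in those that did not. Tubb5 had 76.0 FPKM in cells that reached it and 1.51 FPKM in the others, and Tubb3 67.2 FPKM in cells that reached it and 3.47 FPKM in the others. Tuba1a had 340 FPKM in cells that reached it and 598 FPKM in the others, and Stmn1 212 FPKM in cells that reached it and 149 FPKM in the others. Stmn4 had 47.6 FPKM in the cells that reached the list and 201 FPKM in those that did not. The 46 cells had a median of 4495 genes detected and the 13 cells 2174, so fewer genes of any kind were found in the 13. How often other widely detected genes were missing from the 13 cells was not counted, so these values have no background beside them.

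Against the oligodendrocyte list, 9 of the 10 genes had the higher median in the 46 cells that reached it, and Stmn2 was the exception. Stmn2 had a median of 8.66 FPKM in the 46 cells that reached that list and 13.1 FPKM in the 13 that did not. Tubb4a had 591 FPKM in the cells that reached it and 68.5 FPKM in the others, in which it was still detected in 10 of 13. Stmn4 had 81.2 FPKM in the cells that reached it and 0 in the others, with detection in 6 of 13. Tuba1a had 392 FPKM in the cells that reached it and 62.7 FPKM in the others, and Stmn1 228 FPKM in the cells that reached it and 42.2 FPKM in the others. The genes that tracked the neuronal list were, Stmn2 apart, also lower in the cells without the oligodendrocyte list. Gap43 had 94.6 FPKM in cells that reached it and 2.55 FPKM in the others, and Tubb5 50.5 FPKM in cells that reached it and 5.93 FPKM in the others. Tubb2a had 35.8 FPKM in cells that reached it and 8.29 FPKM in the others, Tubb3 89.3 FPKM in cells that reached it and 27.5 FPKM in the others, and Stmn3 179 FPKM in cells that reached it and 116 FPKM in the others. These 46 cells had a median of 4366 genes detected and these 13 cells 1714, so more genes of any kind were found in the 46. The share of all genes with the higher median in the 46 cells was not counted, so 9 of 10 has no background beside it.

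**Figure D3:**
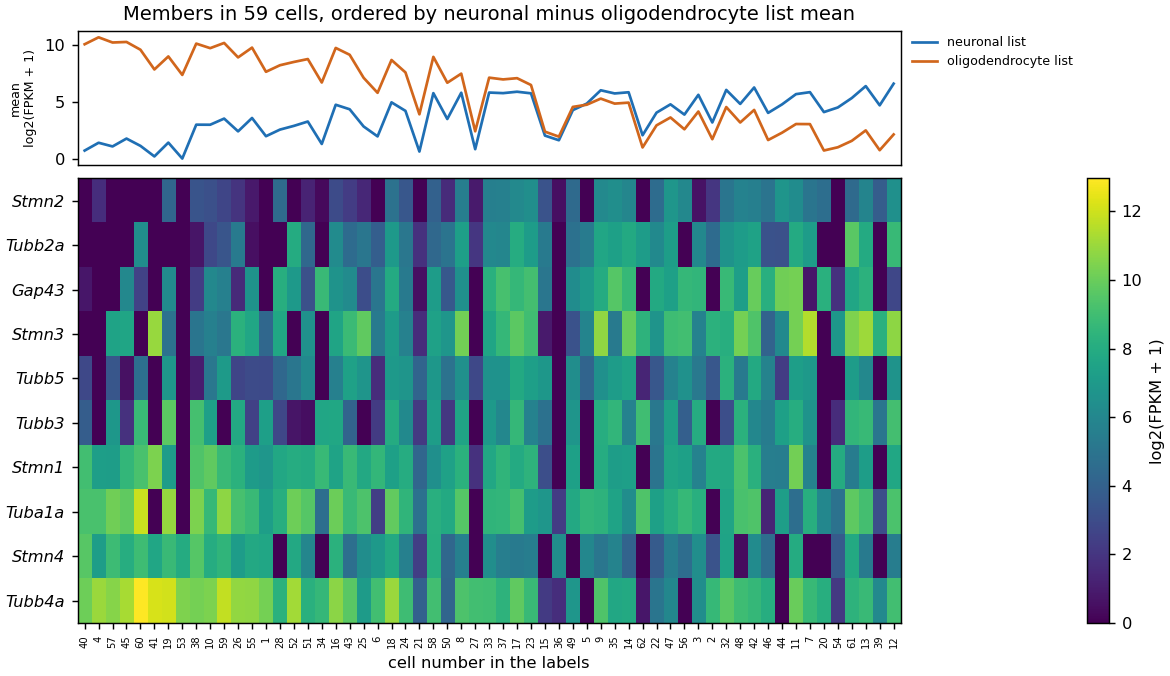
Levels of the 10 genes (rows, log2(FPKM + 1) as colour) in 59 cells (columns, by the cell number in the labels), ordered by the neuronal minus the oligodendrocyte list mean, which the upper panel plots. Stmn2, Tubb2a and Gap43 are at or near 0 in many cells on the left, where Tubb4a is brightest, and Stmn3 is brightest on the right.

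Single cells at the ends of the heat map show the range. Cell 40, where the oligodendrocyte mean stood furthest above the neuronal mean, held Tubb4a at 1112 FPKM, Stmn4 at 775 FPKM and Tuba1a at 610 FPKM, with Stmn2, Stmn3 and Tubb2a at 0. Cell 12, at the other end, held Stmn3 at 1738 FPKM, Tubb3 at 553 FPKM, Tubb2a at 423 FPKM and Stmn2 at 89.4 FPKM. Tubb4a was at 523 FPKM and Tuba1a at 623 FPKM in that cell too, so a neuronal profile did not mean their absence. Gap43 was low in cell 12, at 5.89 FPKM, and at 317 FPKM in cell 13, another cell with neuronal markers far above oligodendrocyte markers. The cells were ordered by markers that exclude the 10 genes.

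The growth-related genes were lower than the mature ones in most cells, by less than the spread over cells. The mean log2(FPKM + 1) of the 6 growth-related genes had a median of 5.93 over the cells. That of the 4 mature genes, with its median taken separately, had 6.69. The growth-related minus mature difference had a median of -0.71 (SD 1.79 over 59 cells). Its quartiles were -1.52 and 0.11, and the extreme cells were at -5.96 and 4.23. It was above 0 in 17 cells (28.8%, 17.8 to 42.1%), above 1 in 9 cells and below -1 in 24. Without Tubb4a and Stmn4, the mature genes that tracked the oligodendrocyte list, the growth-related mean was above the mature mean in 29 of 59 cells (49.2%) and the median difference was 0. With Tuba1a and Stmn1 left out as well, it was above in 33.9% of cells and the median difference was -0.93. Both settings were chosen after the values were seen. Exon length bears on the growth-related minus mature difference too, and no alternative of it changed the length. The union of exons was 2.70 times the longest protein-coding transcript for Stmn2, 1.81 times for Stmn1, 1.26 for Tubb5 and 1.07 for Gap43. Of the mature genes only Stmn4 had a longer union, at 1.41 times. The part of these lengths in the difference was not tested. The difference had a rho of 0.250 with the neuronal list and -0.220 with the oligodendrocyte list.

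Within the beta-tubulins, Tubb4a made up a median of 57.6% of the summed FPKM of 7 measured genes (quartiles 32.4 and 82.0%) and was the highest in 45 of 59 cells. Tubb3 made up 9.47%, Tubb5 4.80% and Tubb2a 3.77%, and Tubb4b, a beta-tubulin found in many tissues, 5.28%. The share of Tubb4a had a rho of -0.481 with the neuronal and 0.560 with the oligodendrocyte list, while the share of Tubb2a had 0.693 with the neuronal and -0.370 with the oligodendrocyte list. Shares of 1 sum are tied to each other, so a higher share of Tubb4a lowers the rest by construction. Tuba1a made up a median of 63.0% of the alpha-tubulin FPKM in the 57 cells with any, and was the highest in 46, with Tuba1b next at 19.7%. Reads that match several genes could have moved or been lost among Tubb2a and Tubb2b, and among Tuba1a and its relatives. Their part in these shares was not tested.

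No stathmin dominated in the same way. Stmn1 made up a median of 33.6% of the stathmin FPKM and was highest in 19 cells, Stmn3 31.4% and highest in 24, Stmn4 9.14% and highest in 13, and Stmn2 1.22% and highest in 3. The share of Stmn3 had a rho of 0.626 with the neuronal list, and that of Stmn4 0.577 with the oligodendrocyte list. On summed FPKM over all cells, Stmn3 held 50.9% of the stathmin signal and Stmn2 2.96%.

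**Figure D4:**
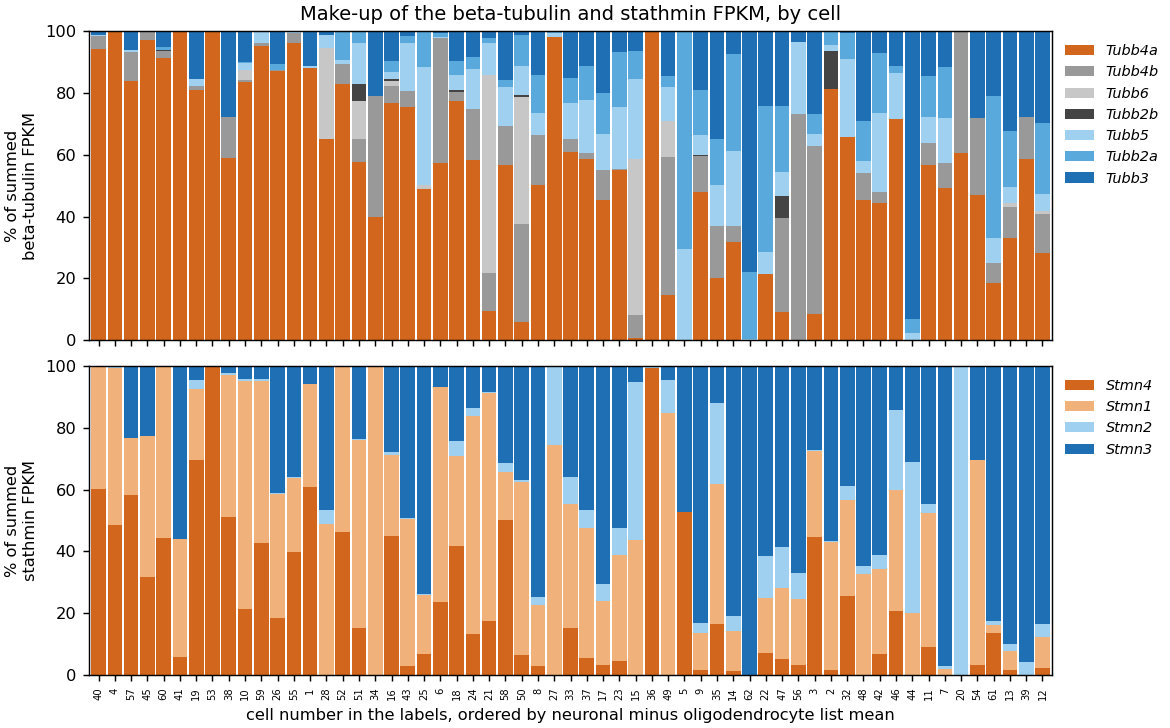
Make-up of the summed FPKM of 7 beta-tubulins (top) and 4 stathmins (bottom) in each of 59 cells, in percent of the sum, with cells ordered by the neuronal minus the oligodendrocyte list mean. Tubb4a is the largest beta-tubulin in 45 cells and fills most bars on the left, while Stmn3 takes more of the stathmin bars on the right.

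The plot of shares also shows single cells that depart from the pattern: Tubb3 held 93.1% of the beta-tubulin FPKM in 1 cell, and Tubb6, a beta-tubulin with wide expression outside neurons, reached 64.1% in another. Stmn2 was the only stathmin above 0 in 1 cell.

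The strongest pairs of the 10 genes fell along the same division, but not all pairs did. Tubb3 had a rho of 0.380 with Tuba1a, above its 0.327 with Tubb5, and Tuba1a with Stmn1 stood at 0.295. The highest rho between members was 0.707 for Tubb4a and Stmn4, then 0.676 for Stmn2 and Gap43, 0.670 for Tubb2a and Tubb5 and 0.614 for Stmn2 and Tubb5. The lowest was -0.304 for Stmn2 and Stmn4, both brain stathmins. Stmn2 was detected without Stmn4 in 8 cells, Stmn4 without Stmn2 in 15, both in 33 and neither in 3. Every cell with Tubb2a also had Tubb5, in 42 cells, and 7 cells had Tubb5 alone.

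Tubb2a and Tubb5 are the pair with the highest rho for which a promoter sequence of both genes was at hand, and these are shown for that reason. Promoters were found for 6 of the 10 genes in a RefSeq table (GRCm38.p6). The lines give the bases before the start at chr13:34078009-34078258 for Tubb2a and chr17:35838307-35838551 for Tubb5, both on the minus strand and written 5′ to 3′ on that strand. Capitals mark matches to 4 motifs, which were searched on both strands. The GC box was searched as GGGCGG, which can overlap others of its kind. The CCAAT box was searched by the letters of its name. The TATA box was searched as TATAAA. The E box, which reads the same on both strands in its fixed letters, was searched as CANNTG.
Tubb2a: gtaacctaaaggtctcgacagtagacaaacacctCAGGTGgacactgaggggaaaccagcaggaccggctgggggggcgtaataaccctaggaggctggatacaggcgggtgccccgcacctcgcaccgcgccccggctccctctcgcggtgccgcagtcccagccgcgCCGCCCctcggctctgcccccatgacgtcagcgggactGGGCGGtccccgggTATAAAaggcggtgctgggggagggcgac
Tubb5: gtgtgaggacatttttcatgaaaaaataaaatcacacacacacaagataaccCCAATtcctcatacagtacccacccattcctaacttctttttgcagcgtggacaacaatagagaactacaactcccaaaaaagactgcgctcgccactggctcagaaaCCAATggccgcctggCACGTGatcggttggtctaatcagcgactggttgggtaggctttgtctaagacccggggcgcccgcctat
Within the 250 bases before the start, Tubb2a had 2 GC boxes, 1 TATA box and 1 E box, and Tubb5 had 2 CCAAT boxes and 1 E box. Over 32851 promoters of the same length, 32.7% held a GC box, 33.8% a CCAAT box, 12.4% a TATA box and 66.2% an E box. The 2 promoters thus shared only the commonest of the 4 motifs, and these matches describe letters, not binding. G and C made up 68.4% of the bases of Tubb2a and 49.2% of those of Tubb5, with a median of 52.4% over all promoters.

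The genes most like each member were the 5 with the highest rho among the 8042 genes in at least 12 cells. For Tubb4a they included Sept4 (a septin, 0.798), Syt11 (0.766), Cldn11 (a tight junction protein of myelin, 0.765) and Apod (apolipoprotein D, 0.729). For Stmn4 they were Cldn11 (0.734), Sept4 (0.710), Tubb4a (0.707), Aplp1 (0.706) and Syt11 (0.706). Cldn11 is a member of the oligodendrocyte list, and 3 of the 5 genes were the same for Tubb4a and Stmn4. For Tuba1a the 5 were Etv1 (0.703), Mapt (the microtubule-binding protein tau, 0.695), Hapln2 (0.685), Edil3 (0.680) and Slc38a2 (0.675). None of these is in a marker list, but their own rho with the oligodendrocyte list ran from 0.437 for Mapt to 0.792 for Hapln2.

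The companions of Stmn2 were Vsnl1 (a neuronal calcium sensor, 0.717), Sncb (beta-synuclein, 0.709), Bex2 (0.706), Snap25 (0.705) and Chchd4 (0.703). Those of Gap43 were Cyfip2 (an actin regulator, 0.714), Uchl1 (a neuronal deubiquitinase, 0.686), Bex2 (0.683), Camk2b (a calcium-dependent kinase, 0.680) and Stmn2 (0.676). Tubb2a was closest to Snap47 (0.786), Tpi1 and Mdh1 (metabolic enzymes, 0.773 and 0.765), Atp6v1g2 (a proton pump subunit, 0.769) and Ttc3 (0.768). Stmn3 was closest to Fkbp3 (0.733), Gng3 (a G-protein subunit of neurons, 0.702), Nme1 (0.696), Zwint (0.680) and Dynlrb1 (a dynein light chain, 0.679). Tubb5 had Ppp1r1a (0.743) first, then Rps4x (a ribosomal protein, 0.740), Gatad1 (0.725), Dnaja1 (a chaperone, 0.711) and Vamp4 (0.708).

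The neuronal marker Tubb3 had Trappc4 (a vesicle trafficking protein, 0.711), Snap47 (0.676), Nap1l5 (0.645), Sucla2 (a mitochondrial enzyme, 0.640) and Gtf2f1 (0.638) as its closest genes. None of them is on the neuronal list, and their own rho with that list ran from 0.273 for Gtf2f1 to 0.675 for Snap47. Given the number of genes detected, the closest gene was the same for each of the 10, and at least 4 of the 5 stayed in every case.

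Stmn1 stood apart in its companions. The closest was Gm11223 (0.892), followed by the myelin gene Mog (0.582), Dbndd2 (0.561), Rab31 (0.553) and Nfasc (0.537). Gm11223 is a processed pseudogene of 450 bases (chr4:69925630-69926079, minus strand) that differs from the 450-base Stmn1 coding sequence at 1 base, A274G, counted from 1 at the first coding base. The 2 sequences are shown from coding base 229 to 318, from GENCODE M21 transcripts on GRCm38, with the differing base in capitals.
Stmn1: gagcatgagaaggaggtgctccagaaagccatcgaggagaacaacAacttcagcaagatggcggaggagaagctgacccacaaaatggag
Gm11223: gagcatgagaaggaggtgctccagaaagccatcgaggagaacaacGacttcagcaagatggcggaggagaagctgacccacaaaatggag
Gm11223 was detected in 49 cells, 0 of which lacked Stmn1, with a median of 97.0 FPKM. It was higher than Stmn1 in 2 cells, and its fragments were a median of 9.17% of those of both genes. Reads of 1 gene over these bases could have been counted for the other. With the fragments of both added, rho with the oligodendrocyte list was 0.486, against 0.487 for Stmn1 alone.

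Other tubulin genes were mostly detected in fewer cells than the 10. Of 4 other alpha-tubulins, Tuba1b was detected in 51 cells at a median of 91.7 FPKM, Tuba1c in 35, Tuba4a in 30 and Tuba8 in 4. Tuba4a had a rho of 0.687 with the neuronal list. Of 3 other beta-tubulins, Tubb4b was detected in 44 cells, Tubb6 in 13 and Tubb2b, the close relative of Tubb2a known from developing cortex, in 8. Reads that match several genes could have been left out or counted for Tubb2a or Tuba1a. The low numbers of cells for Tubb2b and Tuba1c therefore do not show that these genes were rare. The gamma-tubulins, which seed microtubules, were found in 21 cells for Tubg1 and 12 for Tubg2, and the delta-tubulin Tubd1 in 7.

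Proteins that fold, modify or cut tubulin were found at intermediate rates. Of 6 folding factors, 3 were detected in at least 50% of cells, with Arl2 in 42, Tbca in 39 and Tbcb in 37, against 20 for Tbce and 19 for Tbcd. Of 10 modifying enzymes, 4 reached that mark, against 11.7% of all genes in the table. The polyglutamylase Ttll7 and the deacetylase Sirt2 were in 44 cells each and the acetyltransferase Atat1 in 31, while Vash2 was in 2 and Vash1 in 1. Sirt2, also a protein of myelin, had a rho of 0.615 with the oligodendrocyte list. None of the 5 genes for severing proteins reached 50% of cells, a mark that only 11.7% of all genes in the table reached. Katnal1 was detected in 28 cells and Spast in 15, against 12 for Katna1 and 10 for Fign.

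Of 13 further growth cone genes, 8 were detected in at least 50% of cells, against 11.7% of all genes in the table. A rho of 0.5 or more with the neuronal list was reached by 5 of them, against 13.2% of genes in at least 12 cells. None reached 0.5 with the oligodendrocyte list, a mark that only 3.64% of genes in at least 12 cells reached. Dpysl2 (a collapsin response mediator) was found in 53 cells, and Basp1 (a Gap43-like membrane protein) and Gpm6a (a neuronal membrane glycoprotein) in 49 each. The correlation with the neuronal list was 0.738 for Gpm6a, 0.534 for Basp1 and 0.184 for Dpysl2. Tmod2 (0.463), Marcksl1 (0.452) and Dpysl2 (0.387) had a higher rho with the oligodendrocyte list than with the neuronal list, and the others a lower one. Dpysl3 was found in 12 cells and Dpysl5 in 11. Markers of immature neurons were rarer than the growth-related genes: the median over 10 measured markers was 9.32% of cells, with Tbr1 the most common in 18 cells and Dcx in 6, against a median of 81.4% over the 6 growth-related genes.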

How the data were processed

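Single-cell RNA-seq libraries of 59 cells were read on an Illumina instrument, per the labels' protocols. The authors deposited 1 table of FPKM with a column per cell. Tools named are STAR 2.5.3a and featureCounts 1.5.3, with build GRCm38, per the submitters' processing notes. Which annotation release, strand setting and rule for multi-mapped reads were used is not given in the sources used here.

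The depth of each cell was estimated from the spacing of low values, using GENCODE M21 exon lengths for 19366 of 20689 genes (93.6%). In the median cell 73.4% of values up to 20 fragments were whole within 0.02 fragments. Because the others were not, no count model was applied and FPKM was used throughout. Fragment numbers are therefore approximate, and the 51 spike-ins were left out. Detection was an FPKM of 1 or more, and logs were log2(FPKM + 1). List means of this value were compared with each gene by Spearman correlation, without p-values. A list counted as reached in a cell when at least 50% of its genes were detected. Companions were sought among genes in at least 12 cells, with no filter as an alternative.

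The members and the gene lists were chosen with earlier results of these data known. The text names all 10 members, the 5 genes most correlated with each, the 3 most and 2 least detected genes of each pathway list, and the most detected neuronal and immature neuron markers. The most detected genes of the other cell type lists, which the rule also takes, are not named. A few genes that the rule takes are not reported here. Dcx, Tmod2, Marcksl1 and Elavl3 are named beside that rule, after their values were seen. Alternatives were other detection thresholds, pseudocounts of 0.1 and 10, list medians, rescaling each cell to 1000000 without mitochondrial genes and Rn18s-rs5, partial correlation, and cells with at least 2000 genes (46) or 500000 fragments (39). For the astrocyte list, a restricted list of 11 of its markers was a further alternative. Another exon length, 2 reduced member sets and the sum of Stmn1 and Gm11223 were added with the data already seen. The depth estimate and the search for companions were tried on simulated cells, with outcomes not reported here. The simulated cells were made from whole counts only, unlike the real values, so they cannot show how exact the depth estimate is here. Python 3.11.15, pandas 2.3.3, scipy 1.17.1, Biopython 1.88 and matplotlib 3.10.9 were used.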

Additional observations from a re-analysis of the deposited data

How the results depend on the processing

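Of 56 alternative values for the 8 correlations at or above 0.5, 0 had the opposite sign, and of 8 for the growth-related minus mature median difference, also 0. Of 235 for correlations under 0.5, 37 did, such as Tuba1a with the neuronal list, at -0.203 in cells with at least 2000 genes. These alternatives reuse all or part of the same cells, so a change of sign was unlikely for the 8 higher correlations. None of the alternatives for the growth-related minus mature difference changed the exon length. The growth-related mean was above the mature mean in 28.8% of cells, and in 49.2% without Tubb4a and Stmn4, where the median difference was 0 and 2 mature genes were left. Which list a gene tracked more closely was the same for all 10 genes under the 7 alternatives tried for it. The number of genes at a rho of 0.5 with the neuronal list was 5, and 4 in the partial correlation, where Tubb5 stood at 0.494. In cells with at least 500000 fragments, Stmn1 took the place of Tuba1a among the 3 genes at 0.5 with the oligodendrocyte list. The correlation of Tubb3 with the neuronal list ran from 0.238 to 0.458. Rescaling without mitochondrial genes and Rn18s-rs5 raised the median levels, that of Tubb4a to 1631. At 10 recovered fragments Tubb2a was detected in 57.6% of cells and Tubb5 in 69.5%. Depth limits the low end, since in shallow cells a value of 0 does not show absence. No paired analysis was possible because there is 1 group and no test.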
